A study of Arabidopsis thaliana with 4 samples.

Results

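Of 5390 regions of the Arabidopsis thaliana genome bound by MYB67 in vitro, 312 (5.79%) held 5 or more sites for the MYB67 motif. They were chosen by counting, for each peak, its entries in the authors' list of FIMO motif sites and keeping peaks with at least 5. All 312 were found by their coordinates in the peak list and in the table of assigned genes. Together they held 1865 of the 12446 listed sites. The number of sites is what chose these peaks, so this number and the sites per length that depend on it are given as a description.

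The peaks come from DNA affinity purification sequencing, in which a tagged transcription factor on beads captures fragments of naked genomic DNA. The labels list 2 libraries of Halo-tagged MYB67 and 2 of an empty vector that yields the Halo tag alone. Both proteins were made in wheat germ extract and met the same kind of DNA library from the accession Col-0, which the protocol says came from leaf and the tissue label calls root. The files give 1 list of MYB67 peaks with no value for any single library, so the peaks carry no replicate error, sequencing depth is unknown, and no difference between peaks could be tested against the spread between libraries. The assay holds no chromatin and no expression, and the cells in which MYB67 acts cannot be checked with markers here.

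MYB67 belongs to the R2R3 MYB family, whose members bind short elements rich in A and C through a pair of MYB repeats. Such elements stand in the promoters of many genes for phenylpropanoids, the aromatic compounds from which plants make lignin, flavonoids and the phenolic part of suberin. Suberin is the waterproof polymer of the endodermis and of the phellem, the cork layer of the thickening root. Several MYB proteins that read these elements regulate lignin, suberin or wall polysaccharides.

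The authors' deposited motif spans 10 positions, of which 6 carry more than 1 bit of information. It leaves a choice between T and A at position 7 (68.9% and 30.4%) and between C and A at position 9 (53.2% and 46.1%). Position 3 is divided more evenly still, with fractions of 0.502 for C and 0.478 for T, and position 10 holds T at 0.192. The choices at positions 7 and 9, with the most frequent base elsewhere, give the 4 words shown. They are examples of the motif whose sites were counted and leave out its other forms. Capitals mark positions 4 to 10, which are the 6 positions above 1 bit together with position 9.
T at position 7 and C at position 9: tccACCTACC
T at position 7 and A at position 9: tccACCTAAC
A at position 7 and C at position 9: tccACCAACC
A at position 7 and A at position 9: tccACCAAAC
Read on the other strand the first word is GGTAGGTgga and the last is GTTTGGTgga. Against even base frequencies their log2 odds are 14.92, 14.71, 13.74 and 13.53 in the order shown. The site list gives the coordinates of the whole peak for each site, so neither the letters of a single site nor its place and strand within the peak are known here.

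Most of the 312 peaks lay just above the threshold. Exactly 5 sites were counted in 177 peaks, 6 in 70 and 7 in 35, and 30 peaks held 8 or more, up to 25. Just outside, 505 peaks held 4 sites. At the threshold, the strongest peaks of 5 sites were those at AT1G47480 and AT4G21630 and an unassigned peak on chromosome 5 from 21697895 to 21698313, with folds of 19.7, 18.3 and 15.1. The strongest peaks of 4 sites reached much the same folds, namely 19.8 at AT3G23300, 18.2 at KT1 (AT2G26650, a potassium channel gene) and 16.2 at AT5G27770. Fold here is the authors' enrichment of a peak, a ratio of signal to the background modelled by the peak caller.

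**Figure D1:**
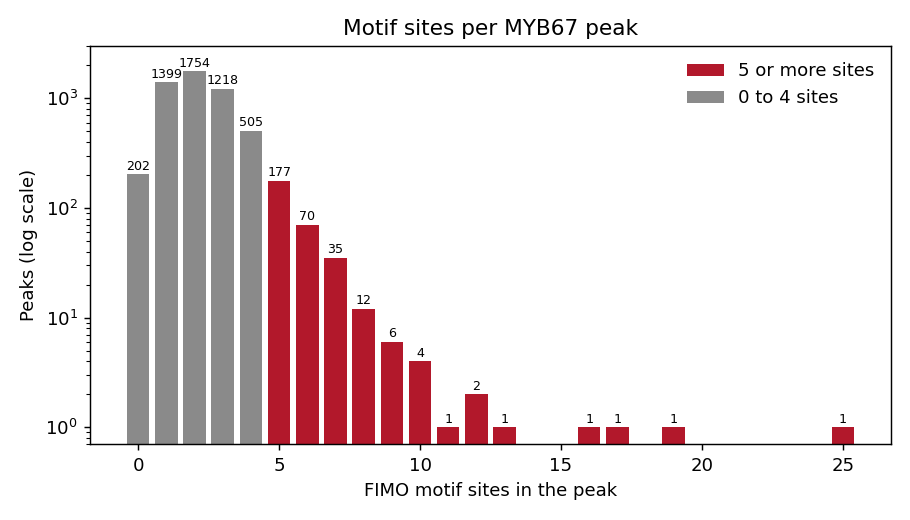
Number of peaks (vertical axis, log scale) by number of FIMO motif sites in the peak (horizontal axis), with the count written over each bar. Red bars are the 312 peaks with 5 or more sites, which form the falling tail of the distribution, and grey bars are the other 5078 peaks.

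The 5 nuclear chromosomes carried these peaks at similar shares. They made up 5.56% of the peaks of chromosome 1 (75), 6.44% of chromosome 2 (58), 5.15% of chromosome 3 (52), 6.21% of chromosome 4 (51) and 5.64% of chromosome 5 (71). On the mitochondrial chromosome 5 of 51 peaks were members, and the single plastid peak was not.

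Peaks with many sites were stronger than the rest of the list. Their median fold was 6.17 (quartiles 4.63 and 8.42, range 2.05 to 23.2), against 4.38 in the other 5078 peaks (quartiles 3.69 and 5.42). A fold of at least 5.57, the upper quartile of all peaks, was reached by 185 of the 312 (59.3%, 95% Wilson interval 53.8 to 64.6%), while the share over all peaks is 25.0% by construction. A −log10 q of at least 10 was reached by 228 (73.1%), against 40.1% of all peaks, and the median −log10 q was 16.8 against 8.01 in the others. Intervals cover counting error only.

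The strongest peaks of the list often held many sites. Among the 10 peaks of highest fold 7 held 5 or more sites, among the first 20 it was 13, among the first 50 it was 21 and among the first 100 it was 30. By deciles of all peaks ordered by fold, members made up between 2.04% and 4.26% of each of the lowest 7 deciles, then 6.33%, 11.8% and 18.4% of the upper ones. Even so, 13 members lay in the lowest decile, with folds of up to 3.22.

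Inside the set, peaks with more sites had higher folds. The median was 5.81 with 5 sites, 6.17 with 6, 6.94 with 7 and 7.69 with 8 or more, but the quartiles overlapped widely: 4.23 to 7.68 with 5 sites and 5.89 to 10.5 with 8 or more. Over the 312 peaks Spearman's rho between sites and fold was 0.22 and Pearson's r 0.31, given as a description of peaks that share the same libraries. Sites per 100 bp ran the other way inside the set (rho −0.20, r −0.17). Most members held 5 or 6 sites, so inside the set this density depends largely on width. Over the 5188 peaks with a site, sites per 100 bp and fold showed almost no relation (rho −0.021, r 0.024).

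Width moved with both measures. The 312 peaks had a median width of 357 bp (range 195 to 1063), against 253 bp in the other peaks, and a wider peak offers more sequence for sites. The median width rose from 334 bp with 5 sites to 363.5 with 6, 425 with 7 and 546.5 with 8 or more. Inside the set, width and fold had a rho of 0.37 and width and sites one of 0.39.

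**Figure D2:**
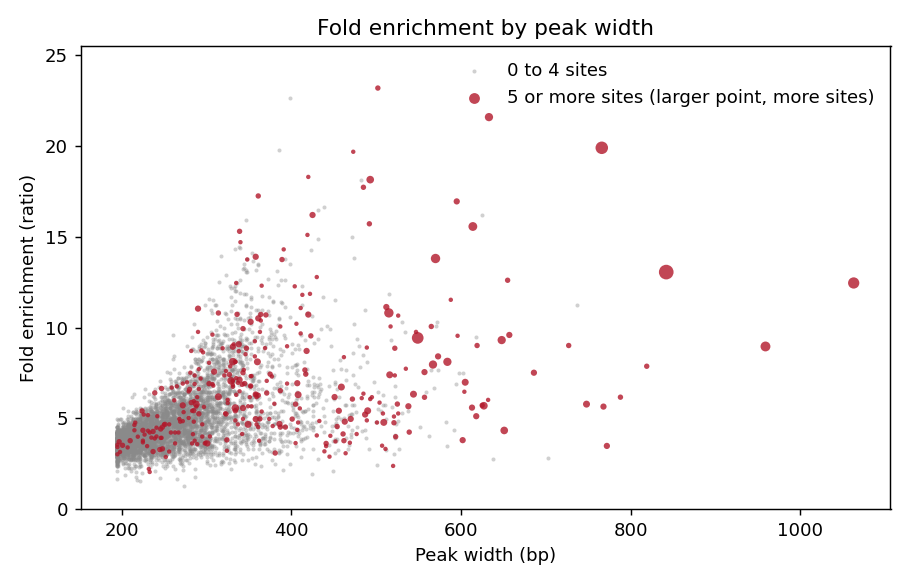
Fold enrichment (vertical axis, ratio) against peak width (horizontal axis, bp) for each of the 5390 peaks. Red points are the 312 peaks with 5 or more sites, larger with more sites, and they extend from 195 to 1063 bp and from a fold of 2.05 to 23.2; grey points are the other peaks.

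Within deciles of peak width, the difference in fold was smaller. When all peaks were divided into deciles by width, the widest decile held 141 members and the next 70. In these deciles the members' median fold was 6.53 against 5.73 in the other peaks, and 7.02 against 6.39. Across the 10 deciles the members' median was higher in 6 and lower in 4, and those 4 were among the 5 narrowest, with 3 to 13 members each. Averaged over the deciles with the members as weights, the difference in median fold was 0.674, against 1.80 without regard to width. The upper quartile by fold within the same decile of width held 102 of the 312 (32.7%), where 25.0% of all peaks lie in it by construction. The widest decile ran from 364 to 1063 bp, so peaks within it could still differ much in width. How much of the higher fold goes with site number and how much with width was not tested.

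**Figure D3:**
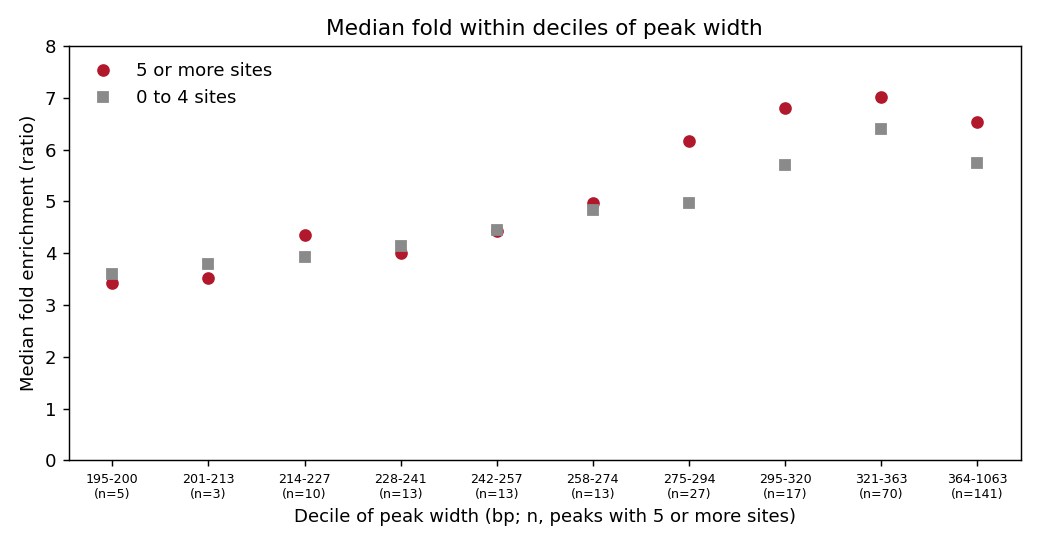
Median fold enrichment (vertical axis, ratio) in each decile of peak width (horizontal axis, bp, with the number of peaks of 5 or more sites). Red circles are peaks with 5 or more sites and grey squares the others; the circles lie above the squares in the 5 widest deciles and in the third, and below them in the other 4.

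The single sites in these peaks were weaker on the whole than those in all other peaks together. Of their 1865 sites 264 (14.2%) had a FIMO q of up to 0.01, against 25.3% of the sites in other peaks, and the median site q was 0.0273 against 0.0209. By number of sites the share was 45.0% with 1, 27.7% with 2, 20.9% with 3, 15.7% with 4, 14.5% with 5, 12.9% with 6, 10.2% with 7 and 18.1% with 8 or more. Peaks with 4 sites had the same median site q as the members, 0.0273, so this was not particular to peaks with 5 or more. Counted by peak, 167 of the 312 (53.5%) held at least 1 site of that quality, against 47.3% of all peaks, which include 202 without any site. The share was 49.5% with 2 sites, 52.4% with 3 and 48.9% with 4, so the members stood close to these. More sites give a peak more chances of holding one. Members with such a site had a median fold of 6.60 (n = 167) and members without one 5.57 (n = 145).

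In 82 of the 312 peaks (26.3%) the same site q occurred more than once, against 3.65% of all peaks. The chance of a recurrence grows with the number of sites, which the selection fixed, so the nearer reference is the 37 of 505 peaks with 4 sites and the 32 of 177 with 5. Among the members 30 had a q in at least 3 copies, 18 in at least 4 and 9 in at least 5. An equal q can come from sites whose letters differ.

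The strongest peak of the whole list was of this kind. It lay on chromosome 1 from 12888099 to 12888600 with no assigned gene, had a fold of 23.2 and held 6 sites, of which 5 shared the q 0.0194. At ACA8 (AT5G56330, a carbonic anhydrase gene; chromosome 5, 22813875 to 22814234) 6 of 8 sites shared 1 q, in a peak with a fold of 8.12. AT4G22505 had the most copies of a single q, with 9 of 16 sites at a q of 0.0098. Recurrence itself did not go with a higher fold: the median was 5.86 in the 82 peaks and 6.17 in the 230 whose sites all had different q-values. ACA8 was chosen after its values were seen.

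**Figure D4:**
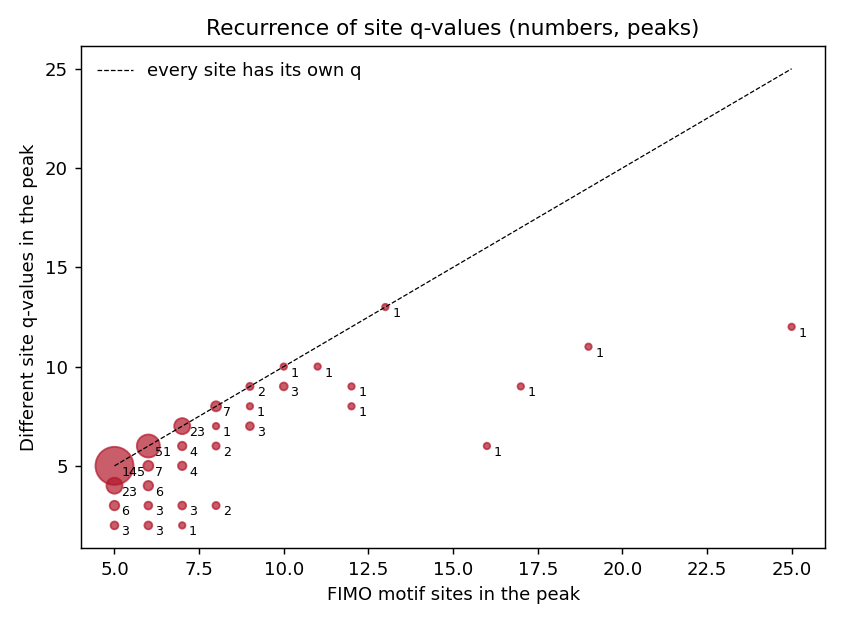
Number of different site q-values (vertical axis) against number of FIMO sites (horizontal axis) in the 312 peaks with 5 or more sites; point size and the number beside each point give the peaks at that place. Points on the dashed line are peaks whose sites all differ in q, and the peaks of 16 to 25 sites lie far below it, with 6 to 12 different values.

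Some of these peaks had nearly the same list of site q-values as another. A pair was counted where at least 4 entries, and at least 80% of the smaller list, were shared, a rule added after the data were seen. This held for 23 of 48516 pairs of members and joined 19 peaks into 6 groups. In 20 of the 23 pairs neither peak had an assigned gene, and 16 pairs joined different chromosomes. The groups of 6 and 5 peaks alone gave 12 and 7 of the pairs, so the pairs are not separate cases. Counted by peak, 14 of the 19 had no gene, while 79.8% of all members had one. The groups of 6 and 5 peaks were wholly without genes, so the 14 peaks are not separate cases either. No chromosome held more than 75 members, so most pairs of members join different chromosomes. The 16 pairs are therefore not read as an excess.

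The largest such group had 6 unassigned peaks on chromosomes 2, 3 and 5, with folds from 8.75 to 16.2. All 6 held sites with the q-values 0.0139, 0.0218 and 0.0383. Its strongest peak, on chromosome 3 from 13987670 to 13988094, had 7 sites, a fold of 16.2 and a −log10 q of 75.4. Another group had 5 unassigned peaks on chromosomes 2, 3, 4 and 5, with folds from 3.63 to 6.94, and all 5 held the q 0.0316. No genome sequence was used here, so whether the peaks of a group share their sequence was not tested.

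The peak with the most sites lay at AT4G22475, on chromosome 4 from 11844605 to 11845446. It held 25 sites in 842 bp, with 6 at a q of up to 0.01, and had a fold of 13.1 and a −log10 q of 53.3. A second peak of the same gene, from 11845825 to 11846339, held 12 sites and had a fold of 10.8. The next member on that chromosome, at AT4G22505 from 11851667 to 11852729, held 16 sites in 1063 bp, the widest peak of the list, with a fold of 12.5 and a −log10 q of 49.8. These neighbours thus hold 3 of the 7 highest site counts, and the 25 sites of the first show only 12 different q-values.

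High site counts were also found on chromosome 3, in 2 peaks more than 10 kb apart. CWLP (AT3G22120), a gene for a proline-rich protein that links cell wall and plasma membrane, had 19 sites from 7795481 to 7796246, the second highest number, with a fold of 19.9 and a −log10 q of 106. AT3G22125, whose peak ran from 7807443 to 7808012, had 12 sites with a fold of 13.8 and a −log10 q of 58.0. AT5G14920 (also GASA14, of a family of gibberellin-regulated peptides; chromosome 5, 4826945 to 4827493) held 17 sites, none of them with a q of up to 0.01, with a fold of 9.44. It was also the densest peak, with 1 site per 32.3 bp.

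The remaining peaks of the 10 with the most sites were at PAL2, CSE and CB5-B, and an unassigned one on chromosome 3 from 17381098 to 17381745 with 10 sites and a fold of 9.32. CB5-B (AT2G32720), which encodes a cytochrome b5, an electron carrier of the endoplasmic reticulum, had 10 sites on chromosome 2 from 13878431 to 13879063. Its fold of 21.6 was the highest at any gene assigned to a member, with a −log10 q of 114. These 10 had folds from 8.97 to 21.6. The 4 peaks of 10 sites were ordered by fold, and AT1G53260 (fold 8.12) and AT3G27100 (fold 7.97), which also held 10, fell outside the 10 by that order.

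Strong peaks did not need so many sites. Besides CB5-B, CWLP, C4H and the unassigned peak of chromosome 1, the 10 members of highest fold included AT1G47480 and AT4G21630 with 5 sites each. IQD22 (AT4G23060, of a family of calmodulin-binding proteins) had 6 sites and a fold of 17.7, NAC007 6 and 17.3, AT5G62210 7 and 17.0, and the unassigned peak of chromosome 3 named above 7 and 16.2. In 5 of these 10 no site had a q of up to 0.01, a share close to that of all members, 145 of 312.

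The weakest members show that many sites also occurred at low fold. The lowest was a mitochondrial peak at ATMG01410 with 5 sites and a fold of 2.05, followed by AT2G07722 (2.22) and the mitochondrial ATMG00690 (2.39). ESB1 (AT2G28670, a dirigent protein needed for lignin of the Casparian strip; chromosome 2, 12301341 to 12301592) had 5 sites with a fold of 2.88 and a −log10 q of 2.21. GAMMA-TIP (AT2G36830, a water channel of the vacuole membrane; chromosome 2, 15443579 to 15444023) had 5 sites with a fold of 2.90, 2 of them with a q of up to 0.01.

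The other mitochondrial members were at ATMG00710 (6 sites, fold 3.10), ATMG00720 (5 sites, fold 4.05) and ATMG01360 (8 sites). The last had the highest fold and reached a −log10 q of 124, and none of the 5 mitochondrial members held a site of q up to 0.01. Dense short peaks were found at ATCSLC08 (AT2G24630, of the family that makes the xyloglucan backbone), with 6 sites in 210 bp and a fold of 3.78, and without a gene on chromosome 3 from 11018818 to 11019018, with 6 sites in 201 bp and a fold of 3.52.

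An assigned gene was listed for 249 of the 312 peaks (79.8%), against 82.8% of all peaks. These were 246 genes, so that 6.06% of the 4058 genes with any peak had one with 5 or more sites. The 63 members without a gene had a median fold of 6.41 and the 249 with one 6.02. Another peak of any kind lay within 10 kb of 187 members (59.9%), against 64.1% of all peaks. The summit lay in mid-peak, at a median of 0.495 of the width, as in the other peaks (0.494).

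For 40 of the 246 genes the list also held a peak with fewer than 5 sites. Over the whole list 4464 peaks were assigned to 4058 genes. How many of those genes had several peaks was not counted, so the 40 have no reference share. Of the 246 genes, 3 had 2 members each. Beside AT4G22475 these were AT3G51930, with 6 sites in each peak and folds of 6.40 and 3.72, and AT5G46910, with 5 sites in each and folds of 8.38 and 7.34. The second peak of AT3G51930 was 197 bp wide, or 1 site per 32.8 bp.

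Genes of the phenylpropanoid and lignin pathway had a peak with 5 or more sites in 6 of the 13 cases in which they had any peak, beside 6.06% over all genes with a peak. The gene lists here and below were chosen with earlier results of these data known. Their shares are therefore a description and not evidence of enrichment. The entry enzyme, phenylalanine ammonia-lyase, was represented by PAL2 (AT3G53260; chromosome 3, from 19746558 to 19747516), with 13 sites in 959 bp. All 13 had different q-values, and the fold was 8.97 with a −log10 q of 36.1. PAL2 had 2 further peaks with 2 sites each and folds of 5.51 and 3.37.

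The 4 members of a list with the highest folds are described in full. For C4H, 4CL1 and CSE the folds were higher than for PAL2 and the sites fewer. C4H (AT2G30490), the hydroxylase that acts on the product of PAL, had 9 sites on chromosome 2 from 12995681 to 12996173, 3 of them with a q of up to 0.01, and its fold of 18.2 was the ninth of all peaks. 4CL1 (AT1G51680), the ligase that activates the acid with coenzyme A, had 5 sites on chromosome 1 from 19162435 to 19162838, a fold of 12.3 and a −log10 q of 53.4. CSE (AT1G52760, LysoPL2 in the gene table), an esterase of the lignin branch, had 11 sites on chromosome 1 from 19650185 to 19650798, a fold of 15.6 and a −log10 q of 113. The 2 others had the lowest folds of these 6, PAL1 with 7 sites and 5.22, and CAD4, the last reductase of monolignol synthesis, with 5 sites and 4.23. PAL4, at a fold of 11.5, just missed the threshold with 4 sites.

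Proline-rich, extensin and arabinogalactan proteins of the wall gave the same number, 6 of 11 genes with a peak. CWLP stands above. AGP19 (AT1G68725; chromosome 1, from 25809050 to 25809776) had 6 sites and a fold of 9.02, AGP30 (AT2G33790; chromosome 2, from 14294856 to 14295186) 9 sites and 8.13, and AGP3 (AT4G40090; chromosome 4, from 18581177 to 18581462) 5 sites and 7.37. These encode arabinogalactan proteins, heavily glycosylated proteins of the cell surface, as do AGP31 and AGP7, the other members, which had lower folds of 5.57 and 4.07. AGP30 and AGP31 had 9 sites each with 7 different q-values and none of q up to 0.01.

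Of the suberin genes, 3 of 11 with a peak had one with 5 or more sites. FACT (AT5G63560; chromosome 5, from 25448485 to 25449088), which joins fatty alcohols to caffeate in root waxes, had 5 sites and a fold of 6.47. The transporter genes ABCG16 (AT3G55090; chromosome 3, from 20418916 to 20419472) and ABCG1 (AT2G39350; chromosome 2, from 16432584 to 16432932) had 6 sites with a fold of 6.17 and 5 with 5.67. None of the 3 held a site of q up to 0.01, and their −log10 q lay between 16.1 and 16.9. The acyltransferase gene GPAT7 had 2 peaks, of 3 and 4 sites.

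Cutin and wax genes had 2 of 10. CER4 (AT4G33790; chromosome 4, from 16207907 to 16208311), which makes the primary alcohols of wax, had 6 sites and a fold of 5.79. CYP86A4 (AT1G01600; chromosome 1, from 218217 to 218988), a fatty acid hydroxylase of cutin synthesis, had 7 sites over 772 bp at a fold of only 3.49. In the flavonoid list 1 of 11 was a member. This was CHS (AT5G13930; chromosome 5, from 4488461 to 4488761), the chalcone synthase of the first step, with 7 sites in 301 bp, a fold of 3.63 and a −log10 q of 5.79.

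Secondary wall genes of xylem gave 1 of 8 for cellulose and xylan and 1 of 9 for the MYB and NAC regulators. IRX9 (AT2G37090; chromosome 2, from 15586850 to 15587139), a glycosyltransferase of xylan synthesis, had 5 sites and a fold of 9.77. VND4 (AT1G12260, NAC007 in the gene table; chromosome 1, from 4167659 to 4168019), a NAC regulator of xylem vessels, had 6 sites, all above a q of 0.02, with a fold of 17.3 and a −log10 q of 81.8.

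No member was assigned to the 3 suberin and endodermis MYB or NAC regulators with a peak, to the 8 expansins and wall-loosening enzymes or to the 3 cambium and phellogen regulators. Of photosynthesis genes, listed as a group unrelated to wall polymers, 1 of 2 with a peak was a member. It was LHCB2.1 (AT2G05100; chromosome 2, from 1823970 to 1824338), a light-harvesting protein, with 5 sites and a fold of 8.88. Over the 11 lists 21 of 88 genes with a peak had one with 5 or more sites, beside 6.06% of all genes with a peak. Because the lists were chosen with earlier results known, this difference cannot be read as enrichment. Of these 21 peaks 16 lay in the upper quartile by fold, where 59.3% of all members lay.

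**Figure D5:**
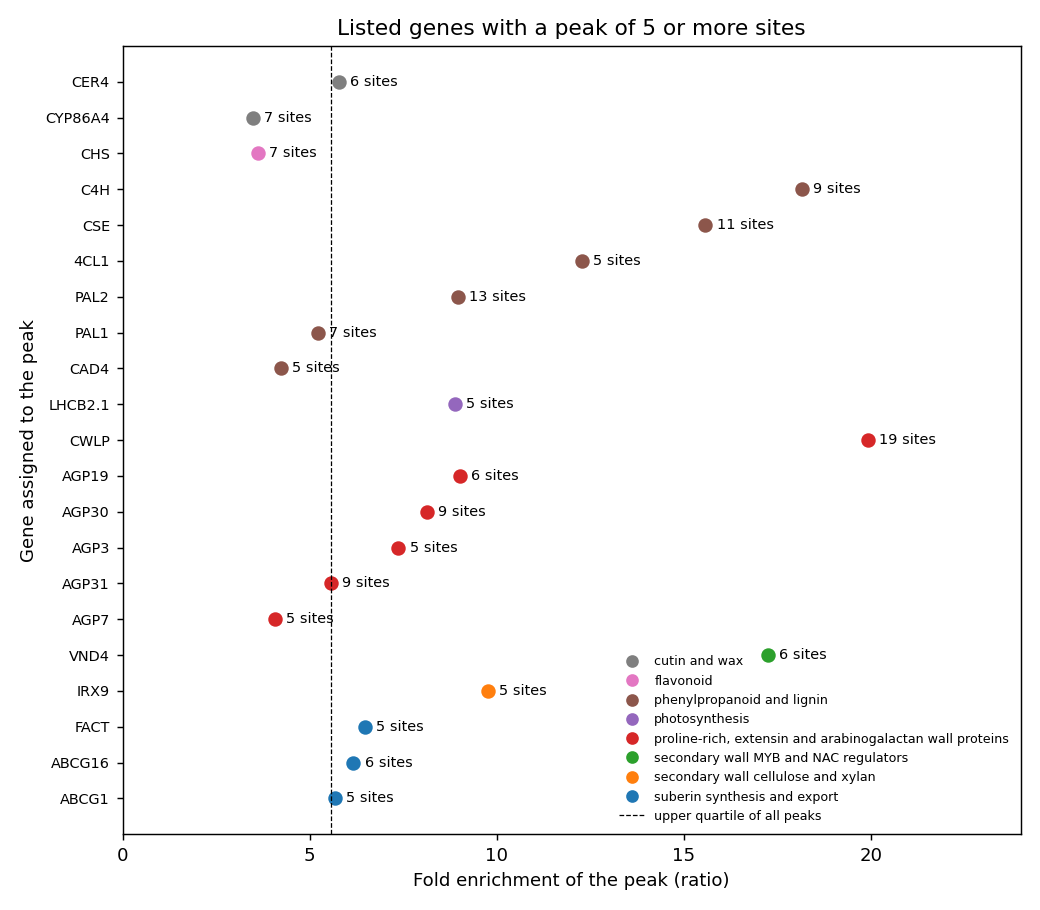
Fold enrichment (horizontal axis, ratio) of the 21 peaks with 5 or more sites at genes of the lists, 1 row per gene, coloured by list, with the number of sites beside each point. The dashed line is the upper quartile of all peaks, 5.57; CWLP, C4H, VND4 and CSE lie farthest to the right, and PAL1, CAD4, AGP7, CHS and CYP86A4 lie left of the line.

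Members outside the lists are given here as single examples, chosen after their values were seen. DHS1 (AT4G39980; chromosome 4, from 18538766 to 18539322), an enzyme at the entry to the shikimate pathway that leads to phenylalanine, had 7 sites and a fold of 7.55. SAM-2 (AT4G01850; chromosome 4, from 798917 to 799454), which makes the methyl donor S-adenosylmethionine, had 7 sites and a fold of 5.67. ATR2 (AT4G30210; chromosome 4, from 14796599 to 14796844), a reductase that passes electrons to cytochromes P450, had 5 sites and a fold of 3.93. TTG2 (AT2G37260; chromosome 2, from 15644191 to 15644847), a WRKY regulator of trichomes and seed coat, had 7 sites and a fold of 9.60.

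Further examples, again named after their values were seen, lay at genes of hormone transport and response. ABCB1 (AT2G36910), an auxin transporter gene, had 7 sites and a fold of 7.52, and ABCB2 (AT4G25960), of the same transporter family, had 5 and 10.2. JAZ1 (AT1G19180), a repressor of jasmonate responses, and ARF19 (AT1G19220), an auxin response factor, had neighbouring peaks on chromosome 1, from 6623466 to 6623804 and from 6630151 to 6630567. They held 7 and 6 sites at folds of 7.13 and 7.44.

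In all, 17 pairs of successive members lay within 10 kb of each other and took in 32 of the 312. Another peak of any kind lay that near to 187 members. Beside C4H, the next member was 1428 bp away at NET4B (AT2G30500, an actin-binding protein), with 5 sites but a fold of 3.58 against 18.2. Beside AGP31 lay AT1G28280, with 6 sites and a fold of 4.53 against 5.57. MES6 (AT2G23550, of a family of methyl esterases) and AT2G23540 had 7 and 6 sites with folds of 8.72 and 8.87. Neighbouring members thus had close folds in some pairs and far different ones in others.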

How the data were processed

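The members and gene lists were chosen with earlier results of these data known. The deposited peak list gives, per peak, a fold enrichment (a ratio) and a −log10 q, and the deposited gene table repeats the ratio with the peak's q-value and names at most 1 gene. The authors' FIMO list gives a q-value per site, up to 0.05 per the file name. The deposited HOMER matrix gives the fraction of each base. Per the submitters' processing notes, the tools were MACS3 3.0.0a7, STAR 2.7.10a, Trimmomatic 0.39, HOMER, Picard 2.27.1, FastQC and bedtools, and the build was TAIR10. Their settings, the treatment of the empty vector and the rule for assigning genes are not given in the sources used here. Wider peaks offer more sequence for sites.

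Sites were counted per peak, and peaks were joined by chromosome, start and end (Python 3.11.15, pandas 2.3.3). The counting was tested on simulated data. Positions are those of TAIR10, counted from 1. Symbols and synonyms came from RefSeq (TAIR10.1), which held 241 of the 246 genes with a member. The other 5 are mitochondrial. Of 283 list names 243 distinct genes were matched. Ambiguous symbols were settled by hand after the files were seen. Peaks are not replicates, so nothing was tested. Named are the 10 members with the most sites (ties by fold), the 10 highest and 5 lowest by fold, the 5 densest, those at list genes (in full for the up to 4 of highest fold per list), genes with several members, organelle members, and the 3 strongest peaks on each side of the threshold. Members in shared-q groups, members with recurring q-values and neighbours named beside these were chosen after their values were seen. The alternatives changed the threshold, site quality, repeated entries, peak set, measure of strength and width.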

Additional observations from a re-analysis of the deposited data

How the results depend on the processing

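Counting repeated entries of 1 peak and q once left 262 members and raised the share with a site of q up to 0.01 from 53.5% to 59.2%. A threshold of 4 sites gave 817 peaks, a median fold of 5.42, a difference from other peaks of 1.14, 48.1% in the upper quartile by fold and 40 members at list genes. A threshold of 6 gave 135 peaks and 6.53, 2.16, 68.1% and 13 for these. Sites of q up to 0.02 alone left 11 peaks, with 13.1, 8.69, 90.9% and 2, and 72.7% held a site of q up to 0.01. Among peaks that reached a −log10 q of 10, the median fold was 7.07, the difference 1.2, and 44.3% lay in the upper quartile of those peaks. Within deciles of width the share in the upper quartile was 32.7%, and the weighted difference, an average chosen after seeing the data, 0.674. The other 23 main comparisons moved by less than their counting interval, or less than 1.5 times for counts. Of 13 further values 8 moved more. Requiring 5 shared q-values left 9 pairs in place of 23. No alternative turned a difference in sign, though 4 of 10 width deciles did.

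Limits: no replicate error exists and depth is unknown, so none of these differences can be set against the spread between libraries. No paired analysis was possible because the files hold no value per library. Sites could not be placed within peaks, and no genome, promoter or protein sequence was used here.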
